A study of Mus musculus with 16 samples.

Results

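The globin genes of the mouse and a duplicate globin model were described as they stand in the gene annotation that accompanied a study of translation in macrophages. The members were chosen by gene name and comprise 8 of the 50578 gene models in the annotation. Of these, 3 belong to the alpha cluster (Hba-x, Hba-a1 and Hba-a2) and 5 to the beta cluster (Hbb-y, Hbb-bh1, Hbb-bs, Hbb-bt and the RefSeq model Beta-s). The choice rested on the order of the genes in each cluster, their exon and coding lengths and the exons shared with Beta-s, so those values are given as a description, without a test.

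The study comprised 16 libraries from mouse bone-marrow-derived macrophages, grown for 7 days from hind-leg marrow with the growth factor M-CSF at 50 ng/ml after lysis of red blood cells. RNA-seq covered 3 LPS-treated and 3 untreated wild-type (WT) C57BL/6 samples, and ribosome profiling covered 2 LPS-treated and 2 untreated WT C57BL/6 samples whose titles also carry the tag CHX. The hours of LPS are not given per sample for these libraries. RiboTag libraries, made from RNA bound to HA-tagged ribosomes in LysM-Cre x RiboTag cells, comprised 2 untreated, 2 treated with LPS for 6 h and 2 treated for 24 h, with no background strain given; LysM-Cre is active in myeloid cells. LPS, or lipopolysaccharide, is a bacterial cell wall molecule that activates macrophages. Library values were not analysed here: none of the 1544831 annotation lines carries a score and 0 columns hold values per sample. No statement is therefore made about globin RNA in these macrophages, the depth is unknown, and the macrophage label was not checked against marker levels.

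Hemoglobin, the oxygen carrier of red blood cells, is a tetramer that pairs alpha-type with beta-type globin chains around heme. In the mouse the alpha-type genes lie in a cluster on chromosome 11 and the beta-type genes in another on chromosome 7, and in each the genes used by embryonic red cells precede those used in the adult in the direction of transcription. Distal enhancers govern both clusters: the beta locus control region lies upstream of Hbb-y, and the alpha enhancers lie mostly in introns of Nprl3. Globin RNA is most abundant in cells of the erythroid lineage.

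The TATA-like motif before 6 members is shown first. It marks where transcription starts, and the promoters were not used in choosing the genes. Promoter sequences were read from RefSeq (GRCm38.p6), which gives 250 bases before and 50 bases after each transcript start, and 6 of the 8 members matched an entry by symbol: Hba-x, Hba-a1, Hba-a2, Hbb-y, Hbb-bs and Hbb-bt. Each line gives 30 bases, from 40 to 11 bases before the RefSeq start, 5′ to 3′ on the gene's strand. Capitals mark ATATAA or, in Hbb-y, CATAAA.
Hba-x (chr11:32276560-32276589, plus strand): tgaccatgtgtATATAAaggagacactggg
Hba-a1 (chr11:32283632-32283661, plus strand): cccttggagggcATATAAgtgctacttgct
Hba-a2 (chr11:32296452-32296481, plus strand): ttggagggcATATAAgtgctacttgctgca
Hbb-y (chr7:103853218-103853247, minus strand): tgtctgtgaagCATAAAaggccaccacttc
Hbb-bs (chr7:103827939-103827968, minus strand): agggcagagcATATAAggtgaggtaggatc
Hbb-bt (chr7:103813934-103813963, minus strand): cagcattgggtATATAAagctgagcagggt
The motif ATATAA began 29 bases before the start of Hba-x, 28 before Hba-a1, 31 before Hba-a2, 30 before Hbb-bs and 29 before Hbb-bt. Hbb-y held no ATATAA in its 300 bases, and CATAAA began 29 bases before its start. Thus 5 of 6 member promoters had ATATAA on the gene strand beginning 35 to 25 bases before the start, against 345 of 32851 promoters (1.05%) in the whole table. ATATAA is followed by A in Hba-x and Hbb-bt and by G in Hba-a1, Hba-a2 and Hbb-bs. The motif was not in the plan made beforehand, and it is the word these 5 sequences share. The contrast is therefore a description, without a test. No share over all promoters is given for CATAAA. The matches of Hba-a1 and Hba-a2 lie in the same sequence. Other globin genes of the clusters, Hbq1a, Hbq1b and Hbb-bh2, had no ATATAA on the gene strand. Hbq1b held it on the opposite strand, 156 bases before the start.

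In the alpha cluster, on the plus strand of chromosome 11, the annotation (build mm10) placed Hba-x, Hba-a1 and Hba-a2 in that order within 20899 bases. Hba-x (ENSMUSG00000055609), which encodes the embryonic zeta chain, spanned chr11:32276400-32278116. Hba-a1 (ENSMUSG00000069919) spanned chr11:32283511-32284465, and Hba-a2 (ENSMUSG00000069917) spanned chr11:32296489-32297298; both encode the adult alpha chain. The 5′ end of Hba-a1 lay 7111 bases after that of Hba-x, and that of Hba-a2 lay a further 12978 bases on. The embryonic gene therefore stood at the 5′ end and the adult pair followed it, with the theta-type gene Hbq1b (chr11:32286965-32287784) between the adult genes and its relative Hbq1a 2770 bases beyond Hba-a2.

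Within 50000 bases of the outer alpha genes the annotation held 8 models, 6 on the plus strand and 2 on the minus strand. Nprl3, which encodes a regulator of the nutrient-sensing kinase complex mTORC1, lay on the opposite strand, with its 5′ end 8692 bases before Hba-x. Mpg, a DNA repair glycosylase, lay within the span of Nprl3 on the plus strand, 43699 bases from Hba-x. The other minus-strand model was LOC100862145, a RefSeq model without a coding sequence (CDS). Of 9 symbols listed as neighbours of alpha globin genes in mammals, 8 were found, with Fam234a not found under that symbol. Il9r, Rhbdf1, Snrnp25, Mpg and Nprl3 were on chromosome 11, whereas Luc7l and Itfg3 were on chromosome 17 and Polr3k on chromosome 2. The alpha globin pseudogene Hba-ps4 was also on chromosome 17, at chr17:26286363-26287061, beside Luc7l (chr17:26252910-26285504).

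In the beta cluster, on the minus strand of chromosome 7, Hbb-y, Hbb-bh1, Hbb-bs and Hbb-bt followed each other from 5′ to 3′ within 40717 bases, from position 103853240 down to 103812524. Hbb-y (ENSMUSG00000052187; chr7:103851745-103853240) and Hbb-bh1 (ENSMUSG00000052217; chr7:103841636-103843164) encode embryonic beta-type chains. Hbb-bs (ENSMUSG00000052305; chr7:103826534-103828096) and Hbb-bt (ENSMUSG00000073940; chr7:103812524-103813996) encode the adult beta chains of the s haplotype, which C57BL/6 mice carry. Counted from the 5′ end of Hbb-y, Hbb-bh1 started at 10076 bases, Hbb-bs at 25144 and Hbb-bt at 39244. The embryonic genes again came first, and the gaps between successive genes were 8580, 13539 and 12537 bases.

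Other models lay inside the cluster, among them Hbb-bh2, annotated as protein-coding (chr7:103839145-103840427), and the pseudogenes Hbb-bh0 and Hbb-bh3. In all, 19 models lay within 50000 bases of the outer beta genes, 12 of them inside the cluster. The 7 flanking models included 5 olfactory receptor genes, with Olfr66 and Olfr64 on the Hbb-y side and Olfr67, Olfr68 and Olfr69 on the Hbb-bt side. The nearest of them, Olfr67, was 24248 bases from Hbb-bt. Of the 19 models 17 were on the minus strand, and the 2 on the plus strand were Gm19831 and the processed pseudogene Gm15115. The map of both clusters shows these positions.

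**Figure D1:**
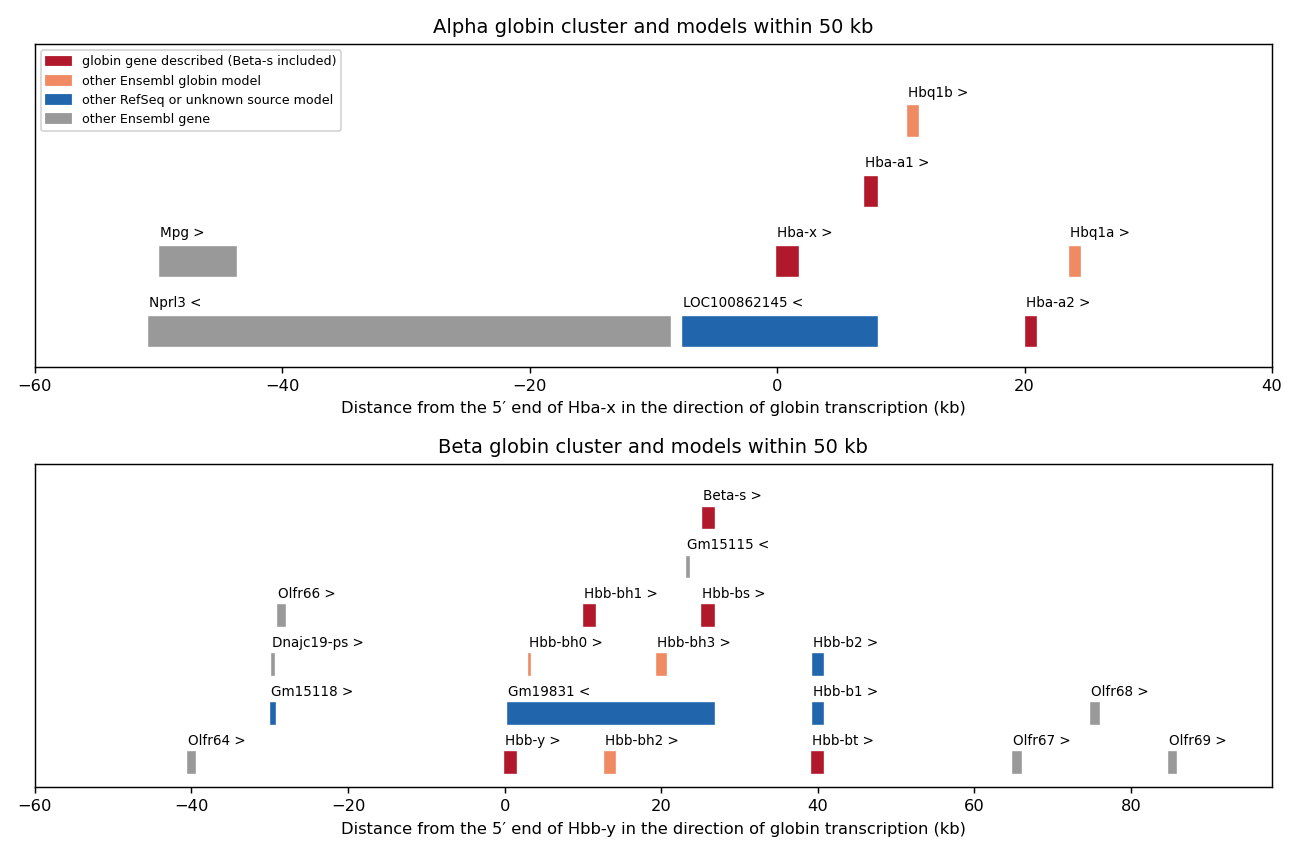
Gene models within 50 kb of the alpha (top) and beta (bottom) globin genes, by distance in kb from the 5′ end of Hba-x or Hbb-y in the direction of globin transcription; bars are gene spans, > marks the globin strand and < the opposite strand. The 3 alpha genes lie within 20899 bases and the 4 Ensembl beta genes within 40717 bases, with Beta-s over Hbb-bs and the Hbb-b1 and Hbb-b2 models over Hbb-bt.

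All 8 members had 3 exons in the transcript read as the gene's coding one, and their exon 2 was of 1 length within each cluster. For Hba-x the exons were 359, 205 and 237 bases long, 5′ to 3′. For Hba-a1 they were 291, 205 and 203 bases, and for Hba-a2 they were 130, 205 and 219 bases. Exon 2, which is wholly coding, was thus 205 bases in each alpha gene, and exons 1 and 3 differed. For Hbb-y the exons were 180, 223 and 258 bases. For Hbb-bh1 they were 146, 223 and 245 bases, for Hbb-bs 295, 223 and 260, and for Hbb-bt 219, 223 and 261. Beta-s had exons of 145, 223 and 271 bases, so every beta-type member had 223 bases in exon 2.

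The introns set the clusters apart. Intron 1 was 810 bases in Hba-x, against 122 bases in both Hba-a1 and Hba-a2. Intron 2 was 106 bases in Hba-x and 134 bases in both adult alpha genes. In the beta-type genes intron 1 was short, with 90 bases in Hbb-y, 105 in Hbb-bh1, 113 in Hbb-bs and 116 in Hbb-bt. Intron 2 was the long intron there, with 745 bases in Hbb-y, 810 in Hbb-bh1 and 654 in both Hbb-bs and Hbb-bt. Hba-x was the exception among the alpha genes in having the long intron in the first position.

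The coding sequences had identical lengths within each cluster. In Hba-x, Hba-a1 and Hba-a2 the CDS was 426 bases without the stop codon, or 142 codons with the start methionine, split into segments of 95, 205 and 126 bases. In Hbb-y, Hbb-bh1, Hbb-bs and Hbb-bt it was 441 bases, or 147 codons, split into 92, 223 and 126 bases. The final coding segment was therefore equally long in both families, and the difference of lengths lay in the other 2 segments. Intron 1 interrupted codon 32 in the alpha genes and codon 31 in the beta-type genes, in each case after the codon's base 2. Intron 2 fell between codons in all of them, after 100 whole codons in the alpha genes and after 105 in the beta-type genes.

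**Figure D2:**
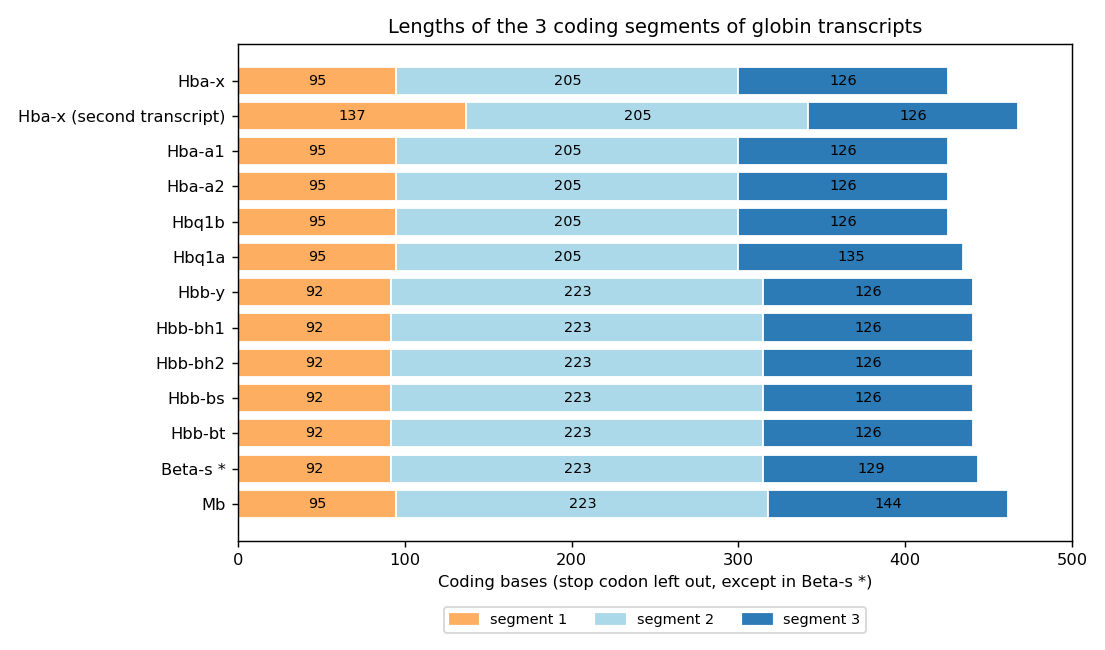
Coding bases of each of the 3 coding segments (bars joined left to right, 5′ to 3′) for the globin transcripts with 3 coding segments drawn here. Segment 2 is 205 bases in every alpha-type bar and 223 in every beta-type bar and in Mb; segment 3 is 126 bases in the members, except Beta-s, whose 129 bases hold the stop codon.

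All 7 Ensembl members had a CDS in 3 segments, against 1565 of 22159 protein-coding genes (7.06%; Wilson 95% interval 6.73 to 7.41) when the transcript with the longest CDS was taken and 19.3% when any transcript could qualify. Sharing a CDS length with some other gene was not particular: it held for 7 of 7 members and for 96.6% of all protein-coding genes. A CDS of 426 bases was the longest one in 28 genes and a CDS of 441 bases in 31. The ordered segment lengths were shared with another gene by 6 of the 7 members, against 8.72% of the 18452 genes with 2 or more coding segments and 14.9% of those with 3. Hba-x was the exception because its longest CDS belonged to another transcript.

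Across 54979 coding transcripts of protein-coding genes, the segment lengths 95, 205 and 126 occurred in 4 transcripts. These were Hba-x, Hba-a1, Hba-a2 and Hbq1b. The lengths 92, 223 and 126 occurred in 5 transcripts, those of Hbb-y, Hbb-bh1, Hbb-bh2, Hbb-bs and Hbb-bt. Every transcript with either set of lengths was a globin. The middle lengths alone were less restricted, with a coding segment of 205 bases in 377 genes and of 223 bases in 273 genes. Outside the clusters, Mb, which encodes the muscle oxygen store myoglobin, had segments of 95, 223 and 144 bases and the same intron phases. Hbq1a differed from the alpha genes in its last segment, of 135 bases.

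The untranslated regions varied more than the coding segments. The 5′ untranslated region was 264 bases in Hba-x, 196 in Hba-a1 and 35 in Hba-a2. In the beta-type genes it was 88 bases in Hbb-y, 54 in Hbb-bh1, 203 in Hbb-bs and 127 in Hbb-bt. The 3′ untranslated region, without the stop codon, ranged from 74 bases in Hba-a1 to 132 bases in Hbb-bt among the Ensembl members, and was 142 bases in Beta-s. Hba-a1 and Hba-a2, whose introns have equal lengths, thus differed at both ends in the annotation.

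Further transcripts were annotated for 4 members, and of these only the shorter coding transcript of Hbb-bs reached beyond the span of the coding one described above. Hba-x had a second coding transcript of 579 bases whose CDS of 468 bases began at its first base, had no start codon line and was split into 137, 205 and 126 bases. Its coding exons 2 and 3 were those of the other Hba-x transcript and only its exon 1 differed. Hba-a1 and Hba-a2 each had a transcript of 494 bases, with exons of 318 and 176 bases and the biotype retained intron. Hbb-bs had a retained-intron transcript of 549 bases and a coding transcript of 407 bases that had an upstream exon of 85 bases and ended within exon 2 of the gene, with 311 coding bases and no stop codon. Hbb-y, Hbb-bh1, Hbb-bt and Beta-s had 1 transcript each.

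Beta-s was a second model of Hbb-bs rather than a further locus. It came from the RefSeq lines, on the minus strand at chr7:103826523-103827928, with the single transcript NM_001201391.1. The RefSeq gene table (GRCm38.p6) pairs that accession with the symbol Hbb-bs and lists Beta-s among its synonyms, and both ends of the model equal those in the table. Of the 639 exon bases of Beta-s, 628 (98.3%) lay in Hbb-bs exons on the same strand, and these were 72.8% of the 863 merged exon bases of Hbb-bs. Both introns were identical, and all 441 coding bases of Hbb-bs lay in Beta-s exons. The 11 bases that Beta-s had to itself extended its 3′ end beyond that of Hbb-bs.

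The 235 exon bases that Hbb-bs did not share came from its 5′ side and from its other transcripts. Its coding transcript started 150 bases upstream of Beta-s, and the gene started 168 bases upstream. The CDS of Beta-s counted 444 bases because RefSeq lines in this annotation hold the stop codon: 2319 RefSeq transcripts with a CDS had 0 stop codon lines. Without it the coding length was that of the other beta-type genes, 147 codons.

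The same kind of overlap was present at Hbb-bt, with a pair of models whose names denote other genes. Hbb-b1 (NM_008220.4; chr7:103812528-103813923) and Hbb-b2 (NM_016956, of unknown source; chr7:103812524-103813923) carry the names of the adult major and minor beta globin genes of the d haplotype, which is the other common arrangement in laboratory mice. All 626 exon bases of Hbb-b1 and all 630 of Hbb-b2 lay in Hbb-bt exons, where they made up 89.0% and 89.6% of its 703 exon bases. Both shared both introns with Hbb-bt and all 441 of its coding bases. Hbb-bt kept 73 exon bases of its own, at its 5′ end. In the RefSeq gene table the accession of the Hbb-b1 model, in a later version (NM_008220.5) whose ends are not both those of the model, is paired with the symbol Hbb-bt, and that of the Hbb-b2 model with Hbb-b2 at a position that does not overlap this model.

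**Figure D3:**
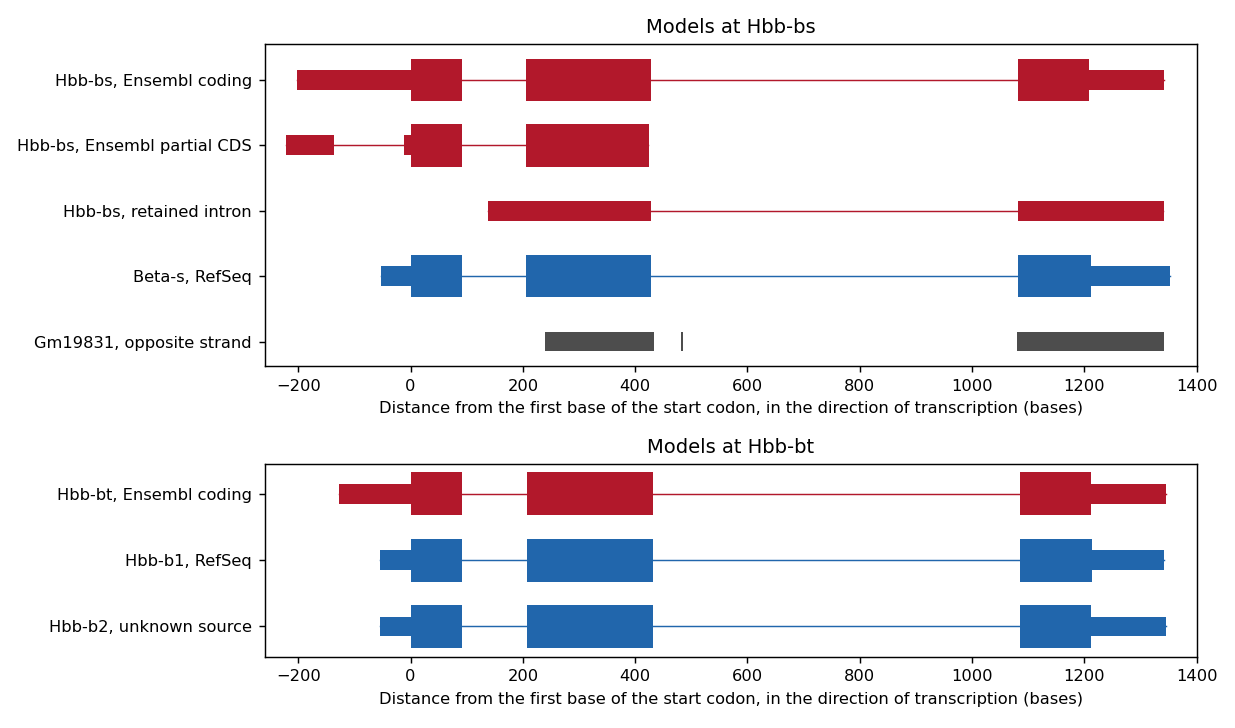
Models at Hbb-bs (top) and Hbb-bt (bottom) by distance in bases from the start codon in the direction of transcription; tall boxes are coding bases, low boxes other exon bases and lines introns, with Ensembl in red, added models in blue and the antisense model Gm19831 in grey. Beta-s follows the coding transcript of Hbb-bs exon for exon, starts 150 bases after it and ends 11 bases beyond it; Hbb-b1 and Hbb-b2 start 73 bases after Hbb-bt.

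The adult beta genes were therefore the members that shared exons on their own strand. Over 50% of exon bases were shared in 3 of 8 members (Hbb-bs, Hbb-bt and Beta-s). The share over Ensembl protein-coding genes, a set without the RefSeq model Beta-s, was 7.45%. Of the 7 Ensembl members, Hbb-bs and Hbb-bt passed that limit. The remaining 5 members shared 0 bases on their strand, and at least 1 base was shared in 13.3% of protein-coding genes. Among the Ensembl members, every CDS base lay in exons of another model in 2, Hbb-bs and Hbb-bt, and in 5.77% of protein-coding genes. A read from within their coding sequence is placed by this annotation in Hbb-bs and Beta-s at once, or in Hbb-bt, Hbb-b1 and Hbb-b2 at once. The labels do not say how such reads were counted, and no read counts were analysed here.

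**Figure D4:**
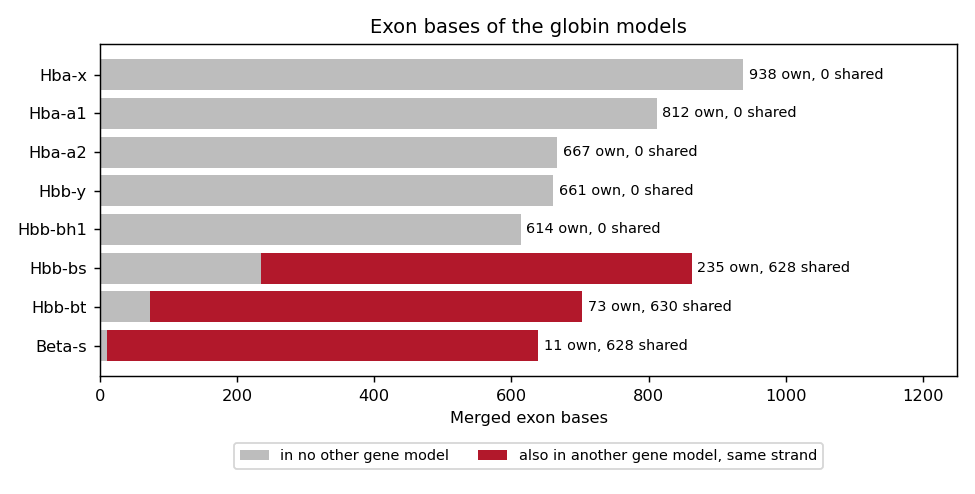
Merged exon bases of each member that lie in no other gene model (grey) and in another model on the same strand (red). The 5 upper members share 0 bases, while 628 of 863 bases of Hbb-bs, 630 of 703 of Hbb-bt and 628 of 639 of Beta-s are shared.

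On the opposite strand, a pair of RefSeq models without a CDS crossed globin exons. Gm19831 (chr7:103826534-103852793, plus strand) ran through 26260 bases, from the 3′ end of Hbb-bs to within Hbb-y, in 8 transcripts. Its 14 distinct exon pieces were 4 to 262 bases long and 11 were of at most 39 bases, a size reached by 4.06% of distinct exons in the annotation. It covered 448 exon bases of Hbb-bs (51.9%) and 39 bases each of Hbb-y and Hbb-bh1. The 262-base piece covered all 260 bases of exon 3 of Hbb-bs, and a 194-base piece covered 188 bases of its exon 2.

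Of the 8 pieces of Gm19831 on globin exons, 6 began at the same place in exon 2, 7 bases from the exon's 3′ end in the direction of globin transcription. They lay in Hbb-bs (56 bases), Hbb-bh2 (15 bases), Hbb-bh1 (21, 26 and 39 bases) and Hbb-y (39 bases). The pieces thus recurred at matching positions of related genes. The alpha cluster held a counterpart, LOC100862145 (chr11:32268758-32284481, minus strand), with 2 transcripts and pieces of 10, 10 and 207 bases. Its 207-base piece covered 191 exon bases of Hba-a1 (23.5%), within exon 3. Neither model was in the RefSeq gene table under its name.

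Upstream of the TATA-like motif, the adult alpha genes held the same sequence. The promoters of Hba-a1 and Hba-a2 were identical over 297 bases once their starts were shifted by 3 bases. An exact copy of the 100 bases before the start in another gene's promoter was found for 848 of 27025 genes (3.14%). The Hba-a2 copy is printed, from 250 to 4 bases before its RefSeq start, with 4 motifs in capitals. In background terms, GATAA is read by GATA factors such as Gata1, CACCC by Klf1 and related zinc finger factors, CCAAT by NF-Y among others, and the TATA-like motif by the general transcription machinery.
Hba-a2 (chr11:32296242-32296488, plus strand): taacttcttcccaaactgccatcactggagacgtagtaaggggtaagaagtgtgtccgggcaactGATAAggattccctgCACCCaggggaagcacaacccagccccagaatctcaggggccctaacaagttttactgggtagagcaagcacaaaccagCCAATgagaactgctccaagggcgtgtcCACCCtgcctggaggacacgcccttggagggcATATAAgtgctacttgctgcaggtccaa
In Hba-a2 the motifs began 185 (GATAA), 170 and 63 (CACCC), 91 (CCAAT) and 31 (ATATAA) bases before the start, and each began 3 bases nearer to the start in Hba-a1.

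In the 3 beta-type members with an entry, CACCC preceded CCAAT, as the windows show with both motifs in capitals. The positions were alike in Hbb-bs and Hbb-bt, while CACCC lay farther upstream in Hbb-y. Hbb-bh2, not a member, held neither motif.
Hbb-y (chr7:103853285-103853324, minus strand): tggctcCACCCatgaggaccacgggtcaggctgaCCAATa
Hbb-bs (chr7:103827999-103828028, minus strand): cgtagagccaCACCCtggtaagggCCAATc
Hbb-bt (chr7:103813993-103814022, minus strand): tgcagggtaaCACCCtggcattggCCAATc
CCAAT began 83 bases before the start in Hbb-y, 76 in Hbb-bs and 75 in Hbb-bt. The nearest CACCC on its 5′ side began at 111, 90 and 89 bases in the same order of genes. In a global alignment of the 250 bases before the start, Hbb-bs and Hbb-bt were identical over 175 bases (68.4% of the alignment). Hbb-bs and Hbb-y were identical over 136 bases (49.5%), Hbb-bt and Hbb-y over 131 bases (49.2%), and, in the alpha cluster, Hba-x and Hba-a1 over 131 bases (49.1%). The adult beta pair was thus the most alike of these 4 alignments, and no aligned adult and embryonic pair passed 49.5%. No pair of unrelated promoters was aligned, so the identity that unrelated sequences reach is not known here.

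Over the 300-base windows on either strand, CCAAT was present in 5 of 6 member promoters, against 37.4% of all promoters. CACCC was present in 6 of 6, against 57.5%, and GATAA in 6 of 6, against 25.4%. In these counts Hba-a1 and Hba-a2 enter separately, although their matches lie in the same sequence. Globin genes of the clusters outside the members went the other way in part. Hbq1a and Hbq1b held CCAAT at 149 bases but no CACCC or GATAA. Hbb-bh2 held GATAA at 166 bases but no CCAAT or CACCC. Hba-x had no CCAAT; it held CACCC at 198 and 95 bases and GATAA at 107 bases before the start. In Hbb-y the GATAA match was on the opposite strand, 162 bases before the start, where it meets a further CATAAA that begins at 158. Hbb-bs held GATAA at 209 bases. Hbb-bt held GATAA at 204 bases, further copies of CACCC at 140 and 104, and CCAAT on the opposite strand at 80 and 36. Each position is that of the motif's base farthest upstream on the gene strand, and no capitalised motif overlaps another in the windows printed. A match does not show a bound factor, and a missing match says only that those letters are not in this window.

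The Ensembl models began upstream of the RefSeq starts, by 200 bases in Hba-x, 161 in Hba-a1, 3 in Hba-a2, 33 in Hbb-y, 2 in Hbb-bh1, 150 in Hbb-bs and 73 in Hbb-bt. As a result, the ATATAA motif lay inside the annotated exon 1 of Hba-x, Hba-a1, Hbb-bs and Hbb-bt, and CATAAA inside that of Hbb-y. In Hba-a2 it lay outside, although its promoter sequence is that of Hba-a1. The longer 5′ untranslated regions of these models include the offset: 196 bases in Hba-a1 with a 161-base offset, against 35 bases in Hba-a2 with a 3-base offset. Whether any library held reads over these bases was not analysed here.

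**Figure D5:**
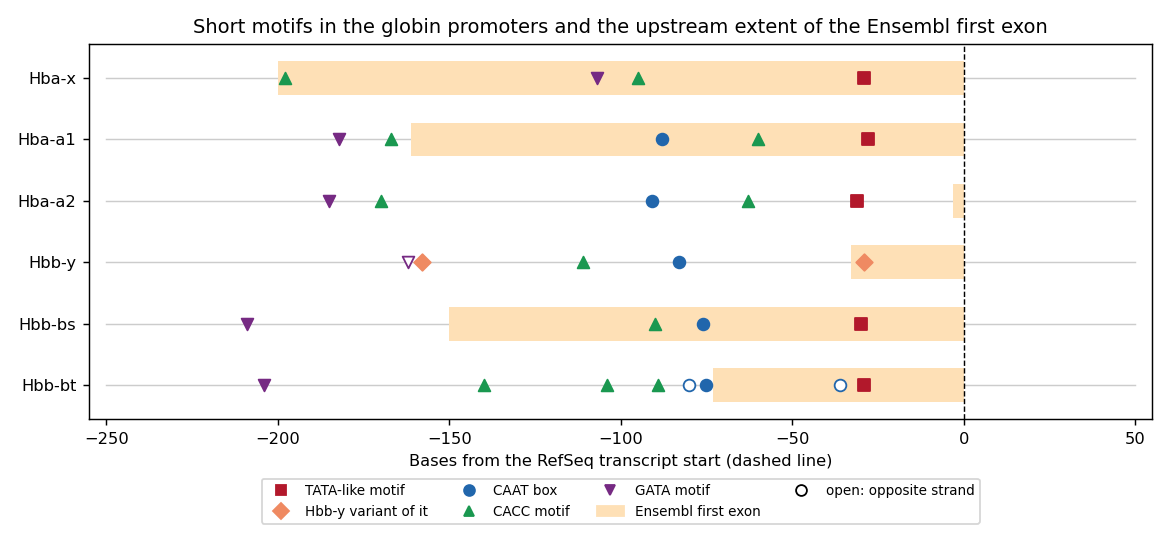
Positions of short motifs before 6 globin genes, in bases from the RefSeq transcript start (dashed line); shaded bars mark how far the Ensembl exon 1 extends upstream and open symbols mark the opposite strand. The TATA-like motif lies 28 to 31 bases before the start in 5 genes and inside the shaded exon in all of these except Hba-a2; Hbb-y has its variant at 29 bases.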

How the data were processed

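The authors deposited 1 gene annotation in GTF format, whose values are start and end positions in bases, counted from 1; 0 columns hold values per sample. Per the submitters' processing notes, TopHat2 (version 2.1.1), which aligns spliced reads, and mm10 are named without a role; how the annotation was assembled is not stated there or in the labels. Models were found by exact gene name and read with Python 3.11.15, pandas 2.3.3 and numpy 2.4.6; figures used matplotlib 3.10.9. Ensembl sources were kept apart from RefSeq and unknown ones. Exon lengths were read from the transcript with a full 3-segment CDS, and shared bases from merged exons of all transcripts on the same strand. CDS lengths leave out the stop codon except on RefSeq lines. Backgrounds cover 22159 Ensembl protein-coding genes or 32851 RefSeq promoters (assembly GRCm38.p6, whose main chromosomes are those of mm10). A Wilson 95% interval (scipy 1.17.1) is printed only for the share of genes with 3 coding segments. Elsewhere such intervals served as the tolerance for alternatives. They cover counting error only, and the genes and promoters were counted in full rather than sampled. Promoters were aligned globally with Biopython 1.88 (match 2, mismatch -1, gap opening -5, gap extension -1). The code was tested on simulated data. No test between groups was run and no p-value was computed, since gene models are not replicates and no depth is known. Members and gene lists (other globins, neighbours, erythroid genes, models sharing an exon base with a member) were chosen with earlier results of these data known. Genes outside these lists were named after their values were seen. Alternatives varied the strand, transcript, threshold, source and window.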

Additional observations from a re-analysis of the deposited data

How the results depend on the processing

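Of 28 alternative settings, 17 stayed within tolerance, which was 1.5 times for counts and the Wilson 95% interval for shares, and 11 moved a value. Some of the 17 could not move. Counting either strand left the shares between named models unchanged, since those models lie on the same strand. Ensembl sources alone gave 7 of the 8 members, since only Beta-s dropped out. The share of Hbb-bs exon bases covered by Beta-s was 80.7% on the transcript with the longest CDS and 100% over CDS bases, against 72.8% over merged exons. Over CDS bases the share of Beta-s covered by Hbb-bs was 99.3% and that of Hbb-bt covered by Hbb-b1 and Hbb-b2 was 100%. With at least 90% of exon bases required, 1 member counted as shared, and among Ensembl models alone 0 did, by construction, since the overlapping models are RefSeq or of unknown source. Genes with 3 coding segments were 19.3% when any transcript could qualify. Genes sharing ordered segment lengths were 7.49% on chromosomes 1 to 19, X and Y, and 14.9% among genes with 3 coding segments. ATATAA was in 1.19% of promoters at 40 to 20 bases before the start and in 9.82% anywhere on either strand. The alternatives on Hbb-bt, ordered lengths, promoters, accession matching and the joint transcript and stop codon choice were chosen after seeing the data. No paired analysis was possible because 0 columns hold values per sample, and the planned LPS comparisons were not run for the same reason.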

Other observations

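The identifiers that group transcripts by start site and protein were reused between models in the annotation. Beta-s carried the transcription start ID of a Sox6 transcript, also on chromosome 7, and the protein ID of an Ablim1 transcript. Hbb-b1 shared its protein ID with Ets2, and Hbb-b2 shared its IDs with Dcaf8 and Fam65a. Of the Ensembl members, Hba-a2 alone shared such an ID, a protein ID with Gm5647. Over the annotation, 5142 of 5142 transcripts of RefSeq or unknown source had a start ID that was also on an Ensembl transcript, and 2481 of 2481 had a protein ID that was. The partner genes were chosen for naming once these values were known.

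Of 13 other globin family symbols 12 were found, with Hba-ps3 not found under that symbol. Besides Hbb-b1 and Hbb-b2, 1 of them shared exon bases on its strand: Adgb, which encodes androglobin, shared 5212 of 6192 exon bases (84.2%), with the RefSeq model 9130014G24Rik. Its longest CDS was 1660 codons. Ngb, which encodes neuroglobin, had 4 coding segments in its longest CDS, of 155 codons, and Cygb, which encodes cytoglobin, had 4, of 190 codons. Of 12 erythroid genes listed, 11 were found, with Ahsp not found under that symbol, and 0 shared an exon base with another model on the same strand. They include Alas2, the heme synthesis enzyme of red cells, and the transcription factors Gata1 and Klf1.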
